A study of Mus musculus with 18 samples.

Results

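Bladders taken 3 days after cyclophosphamide were compared with bladders taken 1 day after saline, in mice that ate a vitamin A-enriched diet, and all 46333 named genes of the gene count table were considered. The comparison uses 6 of the 18 RNA-seq libraries of the series, chosen by their labels, 3 from cyclophosphamide-injected and 3 from saline-injected mice. The wider study asked how extra dietary vitamin A affects the regeneration of the bladder lining after acute injury, and its other 4 groups are used only where stated. All animals were wild-type female BALBc mice aged 8 weeks, and each library came from the whole urinary bladder of a separate mouse. The diet started 1 week before a single intraperitoneal injection of cyclophosphamide (150 mg per kg body weight) or saline. The labels give 566081 UI of retinyl acetate per kg of food, while the series text names retinyl palmitate at 36 times the normal content, and which of the 2 was fed was not resolved. The saline mice analysed here were collected at 1 day, so the drug and the day of collection cannot be told apart in this contrast. Mice were housed in groups of 3 and the cage of each mouse is not given, so cage and group may coincide. The libraries are called saline mice 1 to 3 and 3-day mice 1 to 3 after their replicate numbers, and values of a group are given in that order.

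Cyclophosphamide is an alkylating drug, and its metabolite acrolein collects in the urine and injures the urothelium, the layered epithelium that lines the bladder. The urothelium holds basal cells that carry keratin 5, intermediate cells, and superficial umbrella cells that carry keratin 20 and the uroplakins, and it turns over slowly until injury starts rapid division. Retinoic acid, made from vitamin A by the retinol and retinaldehyde dehydrogenases and broken down by the CYP26 enzymes, acts on nuclear receptors, and lack of vitamin A is known to turn urothelium squamous.

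Totals of the 6 libraries ran from 24125141 to 34598952 counts, and mitochondrial genes took 1.66% to 2.85% of the counts. All 8 urothelial markers checked (Upk1a, Krt5, Upk3a, Upk2, Cdh1, Trp63, Epcam and Krt20) were present in every library, and their summed level was 6095 to 6600 CPM (counts scaled to a library total of 1000000) with saline and 4472 to 6359 CPM at 3 days. The 5 smooth muscle markers summed to 15940 to 23271 CPM with saline and 9863 to 18112 CPM at 3 days. In whole bladder, fewer cells of a type and less RNA per cell cannot be told apart. The library of 3-day mouse 2 stood apart, with the lowest mean correlation with its own group of all 18 libraries (0.948) and the highest share of counts in genes under 1 kb (14.5%). Where a count for a gene list differs without this library, that count is given beside it.

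Of 19323 genes with enough counts to test, 1156 (5.98%) passed an adjusted p of 0.05 in edgeR's quasi-likelihood test with Benjamini-Hochberg adjustment. Of these, 834 (4.32% of the genes tested) rose and 322 (1.67%) fell at 3 days, and the median log2 change over all genes tested was 0.01. Changes over 2-fold were found in 559 genes that rose and 154 that fell, and changes over 4-fold in 286 and 60. The CPM ranges of both groups did not overlap for 20.5% of the genes tested (11.7% higher and 8.82% lower at 3 days). Protein-coding genes made up 1100 of the calls (of 15320 tested) and long noncoding RNAs 36 (of 2760 tested). Without 3-day mouse 2 there were 1300 calls, which included 884 of the 1156 (76.5%). Leaving out saline mouse 1, 2 or 3 lowered the number of calls to 750, 671 and 764. The number of genes that fell was 572 without 3-day mouse 1, 214 without 3-day mouse 3 and 191, 155 and 181 without saline mouse 1, 2 or 3, and the number that rose was 516 without saline mouse 2. A fit on the 6 libraries alone called 499 genes, and the cause of the lower count was not tested. The bar plot of gene lists shows how the calls fall by function.

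**Figure D1:**
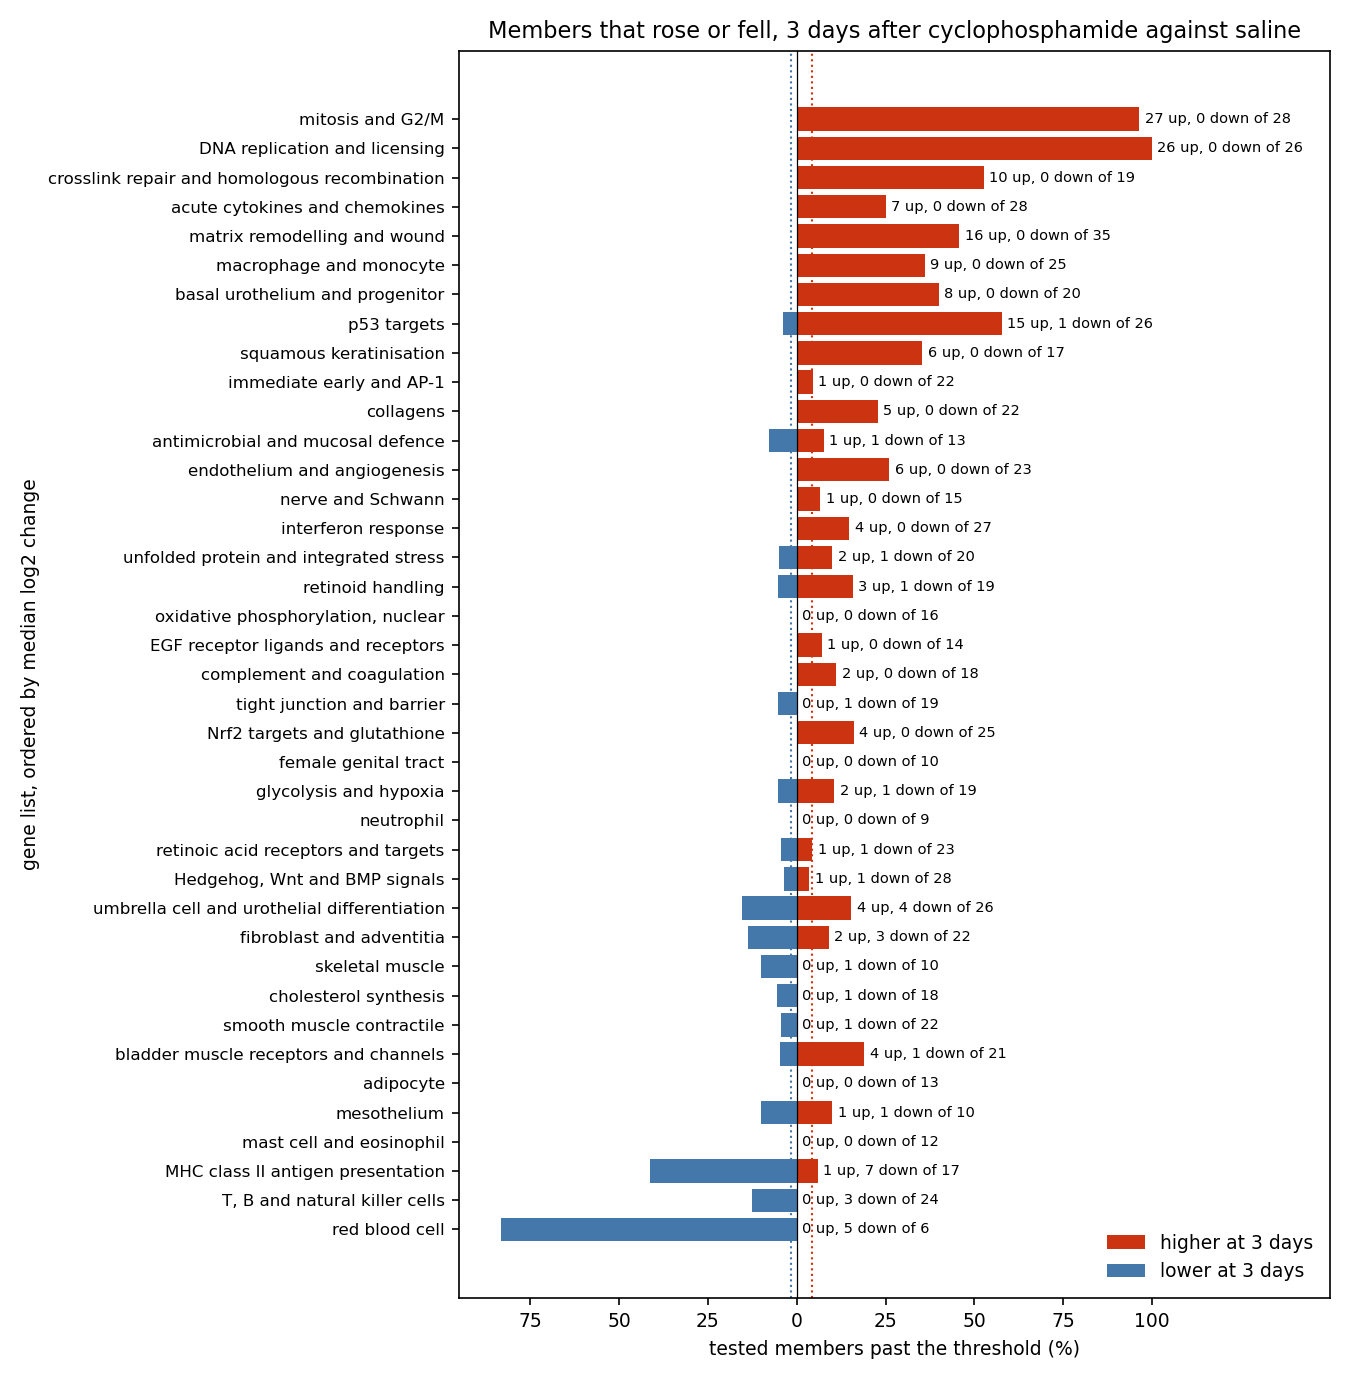
Share of the tested members of each of 39 gene lists that rose (red, to the right) or fell (blue, to the left) 3 days after cyclophosphamide against saline on the vitamin A diet, in percent of the members tested, with lists ordered from the highest to the lowest median log2 change. Dotted lines mark the shares over all genes tested (4.32% higher and 1.67% lower), and the longest bars belong to DNA replication (26 of 26 rose), mitosis (27 of 28 rose) and red blood cell genes (5 of 6 fell).

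Genes of the cell division cycle rose at 3 days. All 26 tested genes of DNA replication and licensing rose, with a median log2 change of 1.80 beside 0.01 over all genes tested. Of 28 tested genes of mitosis and the G2 phase, 27 rose, with a median log2 change of 4.14, and the exception was Kif23 (log2 change 0.39, adjusted p = 0.566). Without 3-day mouse 2 these counts were 25 and 27. The promoters of a few of these genes are printed here because many members share short motifs there, and they come from RefSeq with coordinates of GRCm38.p6, a build other than that of the counts. Each runs from 250 bases before to 50 bases after the listed start of the gene, from 5′ to 3′ on the strand of the gene. Capitals mark matches on either strand. In the first 3 sequences these are the cell cycle homology region (TTTGAA or TTTAAA) and CCAAT, and in Mcm6 they are 4 words of the E2F site (TTTCCCGC, TTTCGCGC, TTTGCCGC and TTTGGCGC), where matches that overlap run together.
Ube2c, chr2:164769679-164769978, plus strand: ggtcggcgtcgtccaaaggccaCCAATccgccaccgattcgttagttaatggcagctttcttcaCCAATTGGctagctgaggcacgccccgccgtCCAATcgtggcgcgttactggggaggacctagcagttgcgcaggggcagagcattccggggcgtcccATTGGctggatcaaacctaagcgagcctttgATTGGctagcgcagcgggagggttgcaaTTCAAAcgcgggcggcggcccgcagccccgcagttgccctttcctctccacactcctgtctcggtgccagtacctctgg
Ccnb1, chr13:100786437-100786736, minus strand: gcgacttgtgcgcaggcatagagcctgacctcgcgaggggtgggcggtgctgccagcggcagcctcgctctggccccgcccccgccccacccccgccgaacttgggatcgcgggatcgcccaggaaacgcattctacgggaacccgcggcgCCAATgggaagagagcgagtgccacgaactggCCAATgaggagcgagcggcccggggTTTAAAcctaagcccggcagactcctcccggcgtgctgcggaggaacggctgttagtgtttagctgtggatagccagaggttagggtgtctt
Prc1, chr7:80294201-80294500, plus strand: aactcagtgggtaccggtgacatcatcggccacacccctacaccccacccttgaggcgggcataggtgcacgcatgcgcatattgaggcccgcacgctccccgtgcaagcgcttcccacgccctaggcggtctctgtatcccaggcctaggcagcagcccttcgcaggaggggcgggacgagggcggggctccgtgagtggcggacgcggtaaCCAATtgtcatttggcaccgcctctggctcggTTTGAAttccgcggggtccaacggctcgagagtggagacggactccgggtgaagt
Mcm6, chr1:128359656-128359955, minus strand: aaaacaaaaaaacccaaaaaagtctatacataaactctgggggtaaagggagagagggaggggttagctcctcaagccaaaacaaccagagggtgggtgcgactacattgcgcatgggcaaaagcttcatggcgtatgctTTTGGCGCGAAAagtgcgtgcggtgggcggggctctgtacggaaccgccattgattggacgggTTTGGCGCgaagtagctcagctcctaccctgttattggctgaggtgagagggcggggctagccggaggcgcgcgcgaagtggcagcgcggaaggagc

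A cell cycle homology word lay in 20 of the 23 mitosis genes with a promoter in the table (87.0%), against 20.6% of the 13953 tested genes with one. CCAAT lay in 19 of the 23 (82.6%), against 37.5%. An E2F word lay in 8 of 21 replication genes (38.1%), against 3.66%. Ube2c has 6 matches to CCAAT and 1 to TTTGAA, Ccnb1 has 2 to CCAAT and 1 to TTTAAA, Prc1 has 1 to CCAAT and 1 to TTTGAA, and Mcm6 has 3 matches to the E2F words, of which 2 overlap. A match describes the letters only, and the binding of a factor was not measured.

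Mki67, which encodes a nuclear protein of dividing cells, was 4.27, 1.63 and 8.88 CPM with saline and 52.1, 58.4 and 142 CPM at 3 days. Mki67 lies at GRCm39 chromosome 7, 135291513 to 135318286, minus strand, as the deposited table gives it. The Mki67 groups did not overlap and 3-day mouse 3 was the highest, with a log2 change of 4.10 ± 0.52 SE, adjusted p = 8.64e-05. Ube2c, which helps to degrade cyclins at the end of mitosis, was 1.10, 0.428 and 0.917 CPM with saline and 27.5, 52.96 and 45.98 CPM at 3 days. All Ube2c values at 3 days lay above all saline values (log2 change 5.66 ± 0.78 SE, adjusted p = 0.000234). Ccnb1, the mitotic cyclin B1, was 0.465, 0.117 and 1.08 CPM with saline and 19.3, 16.7 and 31.4 CPM at 3 days. Prc1, a microtubule bundler of cell division, was 1.39, 0.428 and 1.58 CPM with saline and 38.1, 34.6 and 50.96 CPM at 3 days. Both were at their lowest in saline mouse 2 and at their highest in 3-day mouse 3, with log2 changes of 5.35 and 5.15 (adjusted p = 0.00024 and 3.67e-06). Depdc1a, Cdc25c (a phosphatase that starts mitosis) and the helicase Pif1 were among the genes with the largest increases, at 6.02, 5.35 and 5.50 on the log2 scale.

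Among the replication genes, Mcm6, a subunit of the helicase that opens DNA, was 3.40, 2.37 and 3.71 CPM with saline and 24.9, 22.3 and 62.1 CPM at 3 days. Rrm2, the ribonucleotide reductase subunit that limits the supply of DNA building blocks, was 5.98, 2.92 and 5.21 CPM with saline and 28.8, 26.96 and 70.3 CPM at 3 days. In both genes 3-day mouse 3 was the highest, and each 3-day value lay above the saline range (log2 change 3.51 ± 0.34 SE, adjusted p = 5.34e-06, and 3.13 ± 0.37 SE, adjusted p = 2.73e-05). Uhrf1, which maintains DNA methylation through replication, rose by 3.97, Mcm10 by 3.70 and Dtl, which marks the licensing factor CDT1 for degradation, by 5.43 on the log2 scale. Mcm2 rose by 1.37 (adjusted p = 0.0114), with a log2 change of 0.76 without 3-day mouse 3, and its call ended without 3-day mouse 3 or saline mouse 3 (adjusted p from 0.059 to 0.0919). The summed level of the 26 replication genes was 255 to 261 CPM with saline and 542 to 1093 CPM at 3 days, and that of the 28 mitosis genes was 69.4 to 95.8 CPM and 656 to 1076 CPM.

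DNA damage genes rose in part, beside 4.32% of all genes tested that rose and 1.67% that fell. Of 19 tested genes of crosslink repair and homologous recombination, the pathways that repair lesions of the kind alkylating drugs make, 10 rose and none fell (median log2 change 1.61). The nuclease Exo1 rose by 4.32 on the log2 scale (adjusted p = 0.000621) and the helicase Brip1 by 3.28 (3.79e-05). Brip1 was 0.842, 0.545 and 0.542 CPM with saline and 7.35, 4.19 and 7.93 CPM at 3 days, and the ranges did not overlap. Fancd2, the central crosslink-repair protein of the Fanconi pathway, did not pass, at 9.85, 13.9 and 17.2 CPM with saline and 28.1, 10.3 and 22.03 CPM at 3 days (log2 change 0.54, adjusted p = 0.366), and its 3-day values lay within and above the saline range. Ercc1, a nuclease subunit that cuts beside crosslinks, was 19.1, 19.3 and 19.2 CPM with saline and 27.6, 30.4 and 28.7 CPM at 3 days. The Ercc1 groups did not overlap, but the adjusted p of 0.0515 missed the threshold, and reads of overlapping or antisense genes cannot be told apart without strand information. Leaving out 3-day mouse 1 brought Ercc1 past it (adjusted p = 0.0408), and Ercc1 also passed in DESeq2 and in the fit without a count filter.

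Of 26 tested targets of p53, the transcription factor that halts the cycle of damaged cells, 15 rose and 1 fell (median log2 change 0.75). These counts stand beside 4.32% and 1.67% over all genes tested, and were 17 and 0 without 3-day mouse 2. Cdkn1a, the cell cycle inhibitor p21 (GRCm39 chromosome 17, 29309953 to 29319696, plus strand), was 71.999, 67.9 and 71.8 CPM with saline and 249.7, 243 and 249.8 CPM at 3 days. All 3-day values of Cdkn1a lay above the saline range, and the log2 change was 1.80 ± 0.13 SE, adjusted p = 4.52e-07. Gdf15, a secreted stress hormone, was 0.842, 0.0778 and 0 CPM with saline and 5.70, 5.70 and 4.54 CPM at 3 days (log2 change 3.94 ± 0.66 SE, adjusted p = 0.000816). All Gdf15 values at 3 days lay above the saline range, and in the fit on the 6 libraries alone the adjusted p was 0.0661. Without saline mouse 1 its log2 change was 6.89. The death receptors Eda2r and Tnfrsf10b rose by 2.36 and 1.95 (adjusted p = 5.57e-05 and 8.66e-06), with Eda2r at 3.05, 5.52 and 6.17 CPM with saline and 37.4, 21.7 and 16.8 CPM at 3 days. Rrm2b, the p53-dependent ribonucleotide reductase subunit, fell by 0.56 on the log2 scale (adjusted p = 0.0312). Its call ended without 3-day mouse 2 or 3 or saline mouse 1 or 2 (adjusted p from 0.0669 to 0.163).

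**Figure D2:**
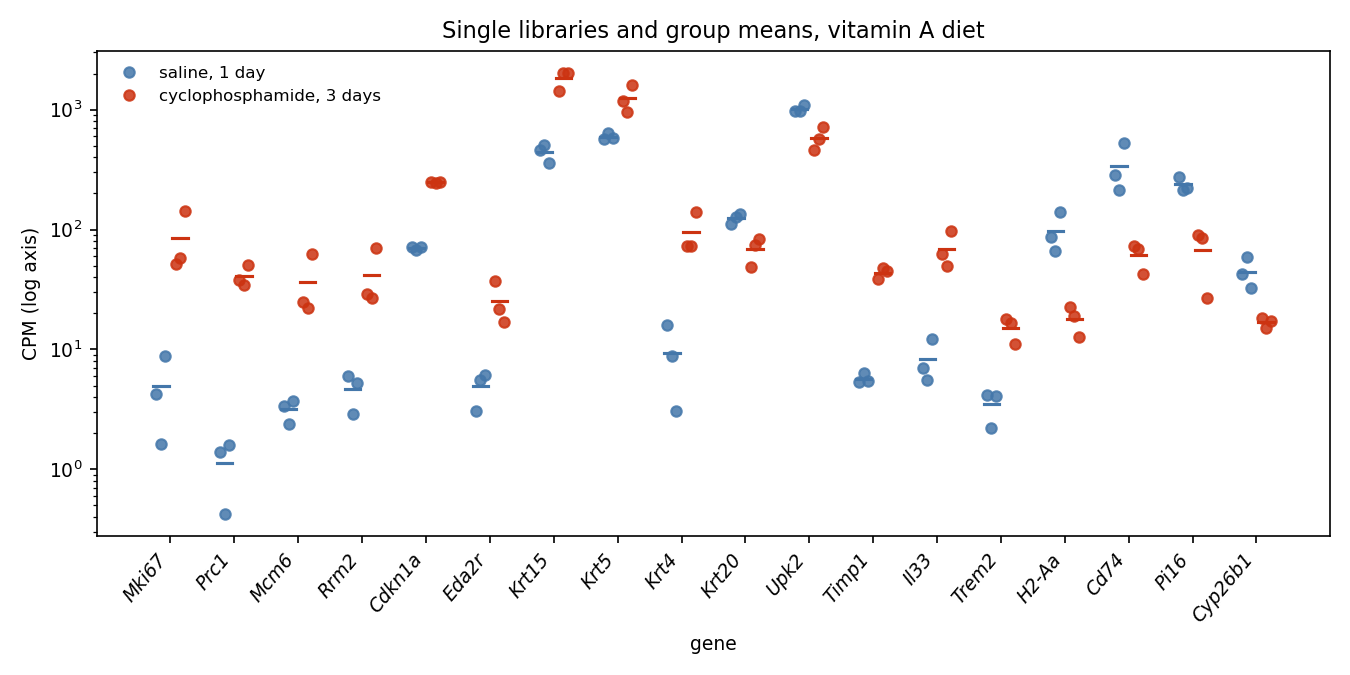
Expression of 18 genes in each library of the comparison, in CPM on a log axis, with saline mice in blue, 3-day mice in red and short bars at the group means of 3 mice. In each of the 18 genes shown the groups do not overlap, with 3-day values above saline for Mki67 to Krt4 and for Timp1, Il33 and Trem2, and below it for Krt20, Upk2, H2-Aa, Cd74, Pi16 and Cyp26b1.

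Keratins of basal and of injured urothelium rose, while Krt20 and the uroplakins that passed the test fell. Of 20 tested basal and progenitor genes 8 rose and none fell (median log2 change 0.80), beside 4.32% and 1.67% over all genes tested. Without 3-day mouse 2, 12 rose. Krt5, the keratin of basal cells, was 567, 637 and 581 CPM with saline and 1170.1, 958 and 1615 CPM at 3 days. Krt15, a keratin of basal and stem-like cells (GRCm39 chromosome 11, 100022585 to 100026775, minus strand), was 459.6, 506 and 359 CPM with saline and 1440.3, 2028 and 2022 CPM at 3 days. Neither gene overlapped between groups, with log2 changes of 1.05 ± 0.19 SE, adjusted p = 0.00171 and 2.05 ± 0.20 SE, adjusted p = 5.76e-06. Krt14, a keratin found in few basal cells of resting bladder and in more after injury, was 1.68, 4.63 and 3.04 CPM with saline and 23.1, 13.2 and 98.04 CPM at 3 days. Krt14 rose by 3.84 ± 0.72 SE on the log2 scale (adjusted p = 0.0037), and by 2.54 without 3-day mouse 3, which was the highest. Trp63, the transcription factor of basal cells, was 201, 212 and 233 CPM with saline and 235, 159.5 and 254 CPM at 3 days. Its log2 change was -0.01, with an approximate 95% interval of -0.33 to 0.31. Shh, the hedgehog ligand that basal cells secrete, had a log2 change of 0.10 (-0.22 to 0.43). The Trp63 and Shh groups overlapped and neither gene passed the test (adjusted p = 0.983 and 0.799). The desmosomal cadherin Dsg3 rose by 4.24, Ngfr by 2.08 and the hemidesmosomal collagen Col17a1 by 1.35. The Dsg3 log2 change was 6.45 without saline mouse 2, and its call ended without 3-day mouse 3 or saline mouse 1 or 3 (adjusted p from 0.05 to 0.0603). Col17a1 lost its call without 3-day mouse 1 or 3 or saline mouse 1 or 2 (adjusted p from 0.0596 to 0.107), and Ngfr in the fit on the 6 libraries alone (adjusted p = 0.0625).

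Of 26 tested umbrella cell and urothelial differentiation genes 4 rose and 4 fell (median log2 change -0.12), beside 4.32% and 1.67% over all genes tested. The counts were 3 and 3 without 3-day mouse 2. Krt20, the umbrella cell keratin (GRCm39 chromosome 11, 99319211 to 99328979, minus strand), was 112, 126 and 133 CPM with saline and 48.7, 74.2 and 83.5 CPM at 3 days. Upk2, a uroplakin of the apical plaque, was 967, 979.6 and 1084 CPM with saline and 457, 564 and 720.00 CPM at 3 days. All 3-day values of both genes lay below the saline range, and the log2 changes were -0.85 ± 0.19 SE, adjusted p = 0.00828, and -0.81 ± 0.19 SE, adjusted p = 0.0125. Both calls ended in the fit on the 6 libraries alone (adjusted p = 0.0984 and 0.115). The tetraspanin uroplakin Upk1a and Upk3b, a uroplakin that mesothelium also makes, fell, with log2 changes of -0.73 and -0.63 (adjusted p = 0.0404 and 0.0268). The Upk1a call ended without 3-day mouse 1 or any saline mouse (adjusted p from 0.0892 to 0.122). That of Upk3b ended without 3-day mouse 1 or 2 or saline mouse 2 or 3 (adjusted p from 0.064 to 0.123). Upk3a was 1606, 1587 and 1623 CPM with saline and 881, 1525 and 1283 CPM at 3 days. Upk1b was 1436, 1678 and 1739.8 CPM with saline and 1120.1, 1347 and 1684 CPM at 3 days. The Upk3a groups did not overlap and the Upk1b groups did, and neither gene passed (log2 change -0.38 and -0.23, adjusted p = 0.456 and 0.553). The 4 members that rose were Krt13, Krt4, Krt19 and Elf3. Krt4 and Krt13, keratins of stratified mucosa, are on the squamous list too, and Krt4 was 15.9, 8.87 and 3.04 CPM with saline and 72.2, 73.2 and 140.03 CPM at 3 days (log2 change 3.32 ± 0.48 SE, adjusted p = 0.000276). The simple keratin Krt19 rose by 1.09 and the epithelial transcription factor Elf3 by 0.91. The Krt19 call ended without saline mouse 3 (adjusted p = 0.0839), and that of Elf3 without 3-day mouse 2 or 3 or saline mouse 1 or 2 (adjusted p from 0.0731 to 0.0985).

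Of 17 tested squamous keratinisation genes 6 rose and none fell (median log2 change 0.60), beside 4.32% and 1.67% over all genes tested. In all, 10 of the 17 log2 changes lay above 0. The count that rose without 3-day mouse 2 was 5. Krt13 was 0.203, 1.09 and 0.458 CPM with saline and 7.85, 7.86 and 8.90 CPM at 3 days, so that every 3-day value exceeded every saline value (log2 change 3.84 ± 0.55 SE, adjusted p = 0.000188). Krt6a, a keratin of wounded skin, had 300 counts over the 3-day libraries and 1 over the saline libraries, a depth-corrected ratio of 311 with a 95% counting interval of 55.4 to 12318. Krt6b had 39 counts at 3 days and 0 with saline, so it was at least 13.5-fold higher, where a group at 0 is set to 3 counts in all. The genes are near-identical and reads may be split between them, and the Krt6b call ended without 3-day mouse 1 or 3 or any saline mouse (adjusted p from 0.0706 to 0.126). The cornified envelope gene Sprr2f rose by 3.80, and Sprr2g, which is not on the list, by 6.02. Sprr2g was 0, 0.0778 and 0.0834 CPM with saline and 4.34, 4.71 and 1.35 CPM at 3 days. With so few saline counts the size of its change is poorly measured, and its call ended with voom sample weights. Sprr2f and Sprr2g belong to a family of close copies. The Sprr2f log2 change was 5.88 without saline mouse 3. The Sprr2f call ended without 3-day mouse 2 or saline mouse 1 or 2 (adjusted p from 0.0622 to 0.106). Anxa10, an annexin, had 87 counts at 3 days and 0 with saline (at least 30-fold higher), and Lypd5 had 249 and 0 (at least 86.0-fold higher). Lypd5 was 1.12, 0.518 and 6.55 CPM at 3 days, so most of its counts came from 3-day mouse 3. The Lypd5 call ended in the fit on the 6 libraries alone (adjusted p = 0.0531) and in the fit without a count filter.

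Genes of signals that pass between the layers of the bladder were read against the 4.32% of all tested genes that rose and the 1.67% that fell. Of 14 tested EGF receptor ligands and receptors 1 rose, the ligand Areg. Areg was 0.639, 0.545 and 0.208 CPM with saline and 8.92, 6.38 and 20.4 CPM at 3 days, with no overlap between groups and a log2 change of 4.60 ± 0.79 SE, adjusted p = 0.00119. Without 3-day mouse 2 the EGF receptor count was 2 of 14. Egfr itself was 64.9, 67.3 and 69.6 CPM with saline and 89.2, 46.8 and 87.3 CPM at 3 days, and its 3-day values lay on both sides of the saline range (log2 change 0.12, adjusted p = 0.742). Of 28 tested Hedgehog, Wnt and BMP genes Wnt4 rose and Bmp2 fell, and the median log2 change was -0.08. Such shares are near the 5.98% of all tested genes that passed. Wnt4, a Wnt ligand, was 55.8, 65.2 and 68.1 CPM with saline and 115, 139.7 and 161 CPM at 3 days (log2 change 1.14 ± 0.17 SE, adjusted p = 0.000334). Bmp2 was 95.8, 128 and 114 CPM with saline and 39.6, 38.4 and 40.1 CPM at 3 days, and the 3-day mice were close together and below all saline mice (log2 change -1.52 ± 0.16 SE, adjusted p = 1.29e-05). Of 19 tested tight junction and barrier genes the claudin Cldn8 fell, from 146, 190.2 and 229 to 71.6, 62.4 and 100.01 CPM (log2 change -1.28 ± 0.24 SE, adjusted p = 0.00204), and none rose. Fgf23, a phosphate-regulating hormone made mainly in bone, was 0.174, 0.428 and 0.417 CPM with saline and 5.45, 10.3 and 53.4 CPM at 3 days (log2 change 6.11 ± 0.86 SE, adjusted p = 0.000201). The Fgf23 groups did not overlap, and 3-day mouse 3 was the highest.

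In both groups the mice ate extra vitamin A, so retinoid genes were compared on a common diet. Of 19 tested genes of retinoid handling 3 rose and 1 fell (median log2 change 0.25), beside 4.32% and 1.67% over all genes tested. Without 3-day mouse 2, 3 rose, 0 fell and the median was -0.05. Cyp26b1, which degrades retinoic acid (GRCm39 chromosome 6, 84548396 to 84570890, minus strand), was 42.5, 58.6 and 32.4 CPM with saline and 18.1, 15.1 and 17.3 CPM at 3 days. Each 3-day value of Cyp26b1 was below each saline value, and the log2 change was -1.42 ± 0.37 SE, adjusted p = 0.0267. Aldh1a3 and Aldh1a2, which make retinoic acid from retinaldehyde, rose by 1.65 (0.0147) and 0.86 (0.0493), and Rdh10, which makes retinaldehyde from retinol, by 0.66 (adjusted p = 0.0164). Aldh1a3 was 2.32, 1.63 and 3.13 CPM with saline and 10.4, 6.66 and 5.33 CPM at 3 days, without overlap. None of these 4 calls held in every fit that left out 1 library. The Cyp26b1 call ended without any 3-day mouse or saline mouse 1 or 2 (adjusted p from 0.0515 to 0.152). That of Aldh1a3 ended without saline mouse 1 or 2 (adjusted p from 0.0572 to 0.0932). The Aldh1a2 call ended without 3-day mouse 1 or 3 or saline mouse 1 or 3 (adjusted p from 0.0649 to 0.21), and that of Rdh10 without 3-day mouse 3 or saline mouse 1 or 2 (adjusted p from 0.064 to 0.0953). Ttr, which carries retinol-binding protein and thyroid hormone in blood, was 34.9, 49.2 and 49.6 CPM with saline and 1.86, 9.53 and 1.19 CPM at 3 days and fell by 3.39 on the log2 scale (adjusted p = 0.0178). The Ttr call ended without 3-day mouse 1 or 3 or saline mouse 2 (adjusted p from 0.0562 to 0.0725).

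Of 23 tested receptors and targets of retinoic acid 1 rose and 1 fell (median log2 change -0.04), shares near the 4.32% and 1.67% over all genes tested. The counts were 0 and 1 without 3-day mouse 2, and the median was 0.04. The members that rose and fell were Pdlim1 (log2 change 0.82, adjusted p = 0.0277) and Tbx1 (log2 change -1.10, adjusted p = 0.0286). The Pdlim1 call ended without 3-day mouse 2 or 3 or any saline mouse (adjusted p from 0.0579 to 0.128), and that of Tbx1 without 3-day mouse 3 or saline mouse 1 or 2 (adjusted p from 0.0955 to 0.128). Rarb, a receptor that retinoic acid induces through its own promoter, was 19.3, 14.4 and 17.05 CPM with saline and 18.9, 18.4 and 24.5 CPM at 3 days. The Rarb groups overlapped and the gene did not pass (log2 change 0.27, adjusted p = 0.482). Cyp26a1, the classic retinoic acid response gene, had 11 counts over the 3-day libraries and 11 over the saline libraries and was too low to test.

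Some inflammatory mediators rose, and no neutrophil marker passed the test. Of 28 tested acute cytokines and chemokines 7 rose and none fell (median log2 change 1.18), beside 4.32% and 1.67% over all genes tested. In edgeR 0 of 9 tested neutrophil markers passed (median -0.03). In the fit without 3-day mouse 2, 6 of the cytokines rose and the neutrophil median was 0.38. Of the 9 neutrophil markers 2 had an unadjusted p under 0.05 and 1 passed in DESeq2. Il33, an alarmin of epithelium and stroma, was 6.97, 5.52 and 12.3 CPM with saline and 62.1, 49.8 and 96.3 CPM at 3 days. All 3-day values lay above the saline range (log2 change 3.07 ± 0.44 SE, adjusted p = 0.000232). Il6 had 74 counts at 3 days and 1 with saline, a ratio of 76.7 (95% counting interval 13.3 to 3069), and the adjusted p was 0.00684. Ccl7, a chemoattractant of monocytes, was 1.05, 0.428 and 2.88 CPM with saline and 8.18, 8.65 and 14.8 CPM at 3 days and rose by 2.88 ± 0.52 SE on the log2 scale (adjusted p = 0.00158). Il11 rose by 2.70, and its call ended without 3-day mouse 2 or 3 or any saline mouse (adjusted p from 0.0572 to 0.126). S100a8, the neutrophil calprotectin subunit, was 0, 0.156 and 0.292 CPM with saline and 0.124, 0 and 0.157 CPM at 3 days. Of 13 tested antimicrobial and mucosal defence genes 1 rose and 1 fell, beside 4.32% and 1.67% over all genes tested. Reg3g, a secreted antimicrobial lectin, was 1.95, 2.02 and 7.75 CPM with saline and 31.8, 39.8 and 50.02 CPM at 3 days (log2 change 3.40 ± 0.45 SE, adjusted p = 8.56e-05), with no overlap. Pigr, which carries IgA across epithelium, was 11.6, 11.2 and 113 CPM with saline and 4.42, 3.31 and 8.46 CPM at 3 days. Saline mouse 3 was far above the other saline mice, and the Pigr log2 change of -3.05 (adjusted p = 0.00774) was -1.13 without it. The Pigr call ended without 3-day mouse 2 or saline mouse 3 (adjusted p from 0.0661 to 0.0665).

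Of 25 tested macrophage and monocyte genes 9 rose and none fell (median log2 change 0.92), beside 4.32% and 1.67% over all genes tested. Without 3-day mouse 2, 7 rose. Trem2, a lipid receptor of tissue macrophages, was 4.18, 2.22 and 4.13 CPM with saline and 17.9, 16.6 and 11.2 CPM at 3 days. The scavenger receptor Msr1 was 3.83, 2.22 and 5.38 CPM with saline and 14.2, 10.8 and 14.5 CPM at 3 days. Neither gene overlapped between groups (log2 change 2.10 ± 0.39 SE, adjusted p = 0.00222, and 1.78 ± 0.27 SE, adjusted p = 0.000277). Cd163, which takes up haemoglobin bound to haptoglobin, rose by 1.57, and by 0.98 without 3-day mouse 1 (adjusted p = 0.00663, or 0.0653 in the fit on the 6 libraries alone). Spp1, osteopontin, rose by 2.03, a call that ended without 3-day mouse 1 or saline mouse 2 or 3 (adjusted p from 0.0633 to 0.124). Adgre1, which encodes the macrophage marker F4/80, was 10.98, 8.95 and 15.3 CPM with saline and 24.1, 12.003 and 15.2 CPM at 3 days, overlapped between groups and did not pass (log2 change 0.52, adjusted p = 0.34). Adamdec1, a metalloprotease-like protein (GRCm39 chromosome 14, 68800836 to 68819521, minus strand), was 31.02, 36.6 and 35.6 CPM with saline and 121, 131 and 111 CPM at 3 days, and its 3-day values did not overlap the saline values (log2 change 1.81 ± 0.17 SE, adjusted p = 3.67e-06). Of 27 tested interferon response genes 4 rose (Irf7, Isg15, Zbp1 and Oasl1) and none fell, beside 4.32% and 1.67% over all genes tested. The log2 changes of these 4 genes were 1.22, 1.35, 1.46 and 1.68. The Irf7 call ended without 3-day mouse 3 or saline mouse 1 or 2 (adjusted p from 0.0553 to 0.112). Isg15 lost its call without 3-day mouse 2 or 3 or any saline mouse (adjusted p from 0.0772 to 0.171). Zbp1 lost it without saline mouse 1 or 2 (adjusted p from 0.0803 to 0.0901), and Oasl1 without 3-day mouse 1 or 3 or any saline mouse (adjusted p from 0.0823 to 0.206).

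Part of the antigen-presentation genes fell, and lymphocyte genes were lower with few calls. Of 17 tested genes of MHC class II presentation 7 fell and 1 rose (median log2 change -1.98), beside 1.67% and 4.32% over all genes tested. Without 3-day mouse 2, 4 fell and 1 rose. H2-Aa, the alpha chain of a class II molecule (GRCm39 chromosome 17, 34501718 to 34506797, minus strand), was 87.2, 65.98 and 139.9 CPM with saline and 22.4, 18.9 and 12.7 CPM at 3 days. Cd74, the invariant chain that escorts it, was 287, 215 and 523 CPM with saline and 73.3, 69.4 and 42.4 CPM at 3 days. All 3-day values lay below the saline range in both genes, and saline mouse 3 was the highest (log2 change -2.45 ± 0.26 SE, adjusted p = 9.36e-06, and -2.47 ± 0.34 SE, adjusted p = 0.000121). H2-Eb1 and H2-Ea, the chains of the second class II molecule, fell, with log2 changes of -2.68 and -2.72 (adjusted p = 3.36e-05 and 3.92e-05). The promoter of H2-Aa is printed from the same RefSeq table, with the core of the class II Y box (CTGATTGG, which contains CCAAT in reverse) in capitals.
H2-Aa, chr17:34287774-34288073, minus strand: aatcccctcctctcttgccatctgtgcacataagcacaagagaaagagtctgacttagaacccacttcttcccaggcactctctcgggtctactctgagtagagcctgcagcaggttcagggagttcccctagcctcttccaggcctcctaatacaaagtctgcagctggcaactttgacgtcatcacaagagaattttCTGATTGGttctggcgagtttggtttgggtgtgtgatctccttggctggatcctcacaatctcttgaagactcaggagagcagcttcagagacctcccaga

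The Y box core was in 3 of the 13 class II genes with a promoter (23.1%) and in 5.43% of the 13953 tested genes with one, and the mitosis genes held it in 26.1%. Flt3, the growth factor receptor of dendritic cell precursors, fell by 2.57 on the log2 scale (adjusted p = 0.0476), a call that ended without 3-day mouse 2 or 3 or any saline mouse (adjusted p from 0.0892 to 0.139). The member that rose was Cd80, a costimulatory ligand that activated cells show to T cells, at 1.07, 1.01 and 1.63 CPM with saline and 10.1, 11.2 and 9.62 CPM at 3 days (log2 change 3.06 ± 0.36 SE, adjusted p = 2.84e-05). Of 24 tested T, B and natural killer cell genes 3 fell and none rose, beside 1.67% and 4.32% over all genes tested. All 24 log2 changes were below 0 and the median was -2.41. The summed level of all 27 genes on that list, tested or not, was 31.5 to 106 CPM with saline and 12.8 to 20.4 CPM at 3 days. Ncr1, the natural killer receptor NKp46, had 3 counts at 3 days and 191 with saline, a ratio of 0.0163 (95% counting interval 0.00333 to 0.0483), and its 3 counts were all in 3-day mouse 3. Il2rb, the interleukin 2 receptor beta chain, was 3.63, 3.35 and 9.17 CPM with saline and 1.16, 0.598 and 1.28 CPM at 3 days (log2 change -2.41, adjusted p = 0.00858). Trbc2, a T cell receptor constant segment, was 1.77, 1.60 and 7.84 CPM with saline and 0.496, 0.518 and 0.188 CPM at 3 days (log2 change -3.20, adjusted p = 0.045). Saline mouse 3 held the highest value of both, and the Trbc2 log2 change was -2.11 without it. The Il2rb call ended without saline mouse 3 (adjusted p = 0.0648), and that of Trbc2 without any 3-day mouse or any saline mouse (adjusted p from 0.0524 to 0.305). None of the 12 tested mast cell and eosinophil genes passed in edgeR or DESeq2, 2 had an unadjusted p under 0.05, and the median was -1.09.

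Haemoglobin transcripts were nearly absent at 3 days. Of 6 tested red blood cell genes 5 fell. The fifth gene to fall was Alas2 (log2 change -3.16, adjusted p = 0.000528), which starts haem synthesis in red cell precursors. Hbb-bs, a beta globin (GRCm39 chromosome 7, 103475730 to 103477135, minus strand), was 139.6, 99.7 and 53.8 CPM with saline and 0.0413, 0.120 and 0 CPM at 3 days, which is 8657 counts over the saline libraries and 4 over the 3-day libraries. Hba-a1 was 72.2, 56.8 and 27.2 CPM with saline and 0.413, 0.160 and 0.219 CPM at 3 days. Hba-a2 and Hbb-bt had 990 and 997 counts with saline and 0 at 3 days (at least 319-fold and 321-fold lower). Hba-a1 with Hba-a2, and Hbb-bs with Hbb-bt, are near-identical pairs whose reads may be split. At 1 day after cyclophosphamide Hbb-bs was 17.998, 17.8 and 59.05 CPM on this diet, and at 3 days on the normal diet it was 0, 0.0920 and 0.172 CPM against 86.7, 65.7 and 37.8 CPM with saline. All 6 libraries collected at 3 days, on either diet, were thus far below every saline library. The 4 red blood cell markers together were at 88.9 to 231 CPM with saline and at 0.501 to 0.867 CPM at 3 days, and the 5 general immune markers at 20.9 to 48.0 CPM and 36.9 to 61.2 CPM. Among the immune markers Cd68 was 12.02, 10.5 and 16.05 CPM with saline and 46.96, 30.8 and 25.8 CPM at 3 days. Ptprc overlapped, at 13.1, 9.84 and 27.6 CPM with saline and 13.8, 8.89 and 10.7 CPM at 3 days. Cd3e, Cd79a and S100a8 were at or below 3.29 CPM in every library. Whether blood left in the bladders had a part in the lower lymphocyte and class II values was not tested.

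Part of the matrix and wound genes rose, and fibroblast genes had calls in both directions. Of 35 tested matrix remodelling and wound genes 16 rose and none fell (median log2 change 0.96), beside 4.32% and 1.67% over all genes tested. Timp1, an inhibitor of matrix metalloproteases (GRCm39 chromosome X, 20736405 to 20740976, plus strand), was 5.34, 6.30 and 5.50 CPM with saline and 38.8, 47.3 and 45.1 CPM at 3 days. The Timp1 groups stood far apart (log2 change 2.93 ± 0.32 SE, adjusted p = 1.32e-05). The hyaluronan synthase Has1 was 0.290, 0.739 and 0.458 CPM with saline and 1.45, 8.89 and 3.82 CPM at 3 days and rose by 3.29 ± 0.69 SE on the log2 scale (adjusted p = 0.00623), while in the fit on the 6 libraries alone its adjusted p was 0.0531. The stromelysin Mmp10 had 143 counts at 3 days and 1 with saline, a ratio of 148 (95% counting interval 26.2 to 5893), and Mmp3 rose by 2.65. The Mmp10 call ended without saline mouse 1 (adjusted p = 0.0548) and that of Mmp3 without saline mouse 1 or 2 (adjusted p from 0.0661 to 0.0887). Of 22 tested collagens 5 rose and none fell (median 0.42), and 4 rose without 3-day mouse 2. The 5 were Col7a1, the anchoring fibril collagen (1.36), Col17a1 (1.35), Col8a1 (0.996), Col5a2 (0.96) and Col18a1, the precursor of endostatin (0.83, log2 changes). The Col7a1 call ended without any 3-day mouse or any saline mouse (adjusted p from 0.051 to 0.161). Col8a1 lost its call without 3-day mouse 3 or saline mouse 1 or 3 (adjusted p from 0.0528 to 0.0691), and Col5a2 without 3-day mouse 1 or saline mouse 2 or 3 (adjusted p from 0.0714 to 0.0838). Col1a1 was 1307, 1121 and 1211 CPM with saline and 3151, 1448 and 1472 CPM at 3 days; 3-day mouse 1 was the highest, and the gene did not pass (log2 change 0.71, adjusted p = 0.267).

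Of 22 tested fibroblast and adventitia genes 2 rose and 3 fell (median log2 change -0.16), beside 4.32% and 1.67% over all genes tested. Without 3-day mouse 2, 1 rose and 2 fell. Pi16, a marker of adventitial fibroblasts, was 276, 215 and 224 CPM with saline and 89.6, 84.9 and 26.8 CPM at 3 days. Gsn, the actin-severing protein gelsolin, was 2955, 2893 and 2060.2 CPM with saline and 1243, 1191 and 889.5 CPM at 3 days. Both stood below saline in each 3-day mouse (log2 change -1.84 ± 0.41 SE, adjusted p = 0.0101, and -1.26 ± 0.17 SE, adjusted p = 0.000121), and the Pi16 adjusted p was 0.0531 in the fit on the 6 libraries alone. Dpp4, a surface peptidase of the same fibroblasts, fell by 2.05 on the log2 scale, a call that ended without 3-day mouse 2 or 3 or saline mouse 2 or 3 (adjusted p from 0.0601 to 0.0996). The members that rose were Ly6a, which encodes Sca-1 (log2 change 1.14, adjusted p = 0.00253), and the secreted glutathione peroxidase Gpx3 (log2 change 0.94, adjusted p = 0.0129), the latter lost without 3-day mouse 2 or saline mouse 1 or 2 (adjusted p from 0.0528 to 0.0632). C1qtnf3, a secreted protein of the C1q and TNF family, was 19.8, 15.1 and 30.6 CPM with saline and 1.86, 1.24 and 1.19 CPM at 3 days, without overlap (log2 change -3.94 ± 0.45 SE, adjusted p = 2.40e-05). Myoc, myocilin, was 35.5, 24.8 and 27.5 CPM with saline and 3.80, 7.26 and 0.470 CPM at 3 days (log2 change -2.93 ± 0.62 SE, adjusted p = 0.0068, or 0.0781 as adjusted p in the fit on the 6 libraries alone). Of 23 tested endothelial and angiogenesis genes 6 rose and none fell (median 0.39). Icam1, which binds leukocytes, was 21.4, 23.7 and 30.6 CPM with saline and 66.6, 45.4 and 79.04 CPM at 3 days (log2 change 1.32 ± 0.16 SE, adjusted p = 3.38e-05). Plvap, a diaphragm protein of fenestrated vessels, rose by 1.17 (adjusted p = 0.000335). Neither Icam1 nor Plvap overlapped between groups, whereas Pecam1, the general endothelial marker, did (log2 change 0.37, adjusted p = 0.291). The apelin receptor Aplnr rose by 1.53 and P-selectin (Selp) by 1.60, the latter lost without 3-day mouse 1 or saline mouse 2 or 3 (adjusted p from 0.054 to 0.0846) and the former in the fit on the 6 libraries alone (adjusted p = 0.0531).

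Contractile genes of the bladder muscle were mostly lower without passing the test. Of 22 tested smooth muscle genes 1 fell, beside 1.67% of all genes tested, and none rose. In 21 of the 22 the log2 change was below 0 (median -0.45). Synpo2, an actin-bundling protein, was 1429, 1142 and 1066 CPM with saline and 657, 671 and 384 CPM at 3 days (log2 change -1.10, adjusted p = 0.0159). The Synpo2 call ended without 3-day mouse 3 or saline mouse 1 (adjusted p from 0.0781 to 0.0805). Myh11, the smooth muscle myosin heavy chain, was 7026, 5870.3 and 5815 CPM with saline and 4399, 3248 and 2420.3 CPM at 3 days. All Myh11 values at 3 days lay below saline, but the gene did not pass in edgeR (log2 change -0.91, adjusted p = 0.11). It passed in DESeq2 and with voom sample weights. Without 3-day mouse 2, 2 of the 22 fell and the median was -0.75. Of 21 tested receptors and channels of bladder muscle 4 rose and 1 fell, beside 4.32% and 1.67% over all genes tested. The counts were 3 and 1 without 3-day mouse 2. Most members were lower, with a median log2 change of -0.49 and only 5 of the 21 above 0. Bdkrb1, the bradykinin B1 receptor that injury induces, was 0.0581, 0.0389 and 0.292 CPM with saline and 3.22, 6.06 and 4.61 CPM at 3 days (log2 change 5.20 ± 0.69 SE, adjusted p = 8.56e-05). The constitutive B2 receptor Bdkrb2 was 25.6, 25.9 and 22.6 CPM with saline and 42.5, 42.5 and 39.6 CPM at 3 days (log2 change 0.74, adjusted p = 0.00663). Both bradykinin receptors were higher in every 3-day mouse than in every saline mouse, and the Bdkrb2 call ended without saline mouse 3 (adjusted p = 0.0555). The endothelin receptor Ednra rose by 1.69 ± 0.26 SE on the log2 scale (adjusted p = 0.000417), and the prostaglandin receptor Ptger3 by 1.18, a call that ended in all 6 fits without a library (adjusted p from 0.0557 to 0.225). Chrm2, the more abundant muscarinic receptor of bladder muscle, was 57.4, 58.7 and 23.4 CPM with saline and 18.5, 11.01 and 19.7 CPM at 3 days (log2 change -1.54, adjusted p = 0.0143). The Chrm2 call ended without 3-day mouse 2 or saline mouse 1 or 2 (adjusted p from 0.0697 to 0.0804). Chrm3, the receptor that drives contraction, was 22.6, 28.6 and 15.6 CPM with saline and 24.2, 10.5 and 15.2 CPM at 3 days, overlapped and did not pass (log2 change -0.45, adjusted p = 0.563).

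Metabolic and stress genes had calls in both directions, beside 4.32% higher and 1.67% lower over all genes tested. Of 25 tested targets of the antioxidant factor Nrf2 4 rose (Gpx2, Hmox1, Akr1b8 and Gpx3) and none fell, with a median of 0.08, or -0.03 without 3-day mouse 2. Gpx2, an epithelial glutathione peroxidase, was 16.9, 16.5 and 14.5 CPM with saline and 53.03, 65.2 and 87.8 CPM at 3 days. Hmox1, which degrades haem, was 28.1, 20.6 and 23.9 CPM with saline and 69.6, 57.9 and 126 CPM at 3 days. Each was higher in all 3-day mice (log2 change 2.09 ± 0.33 SE, adjusted p = 0.000475, and 1.78 ± 0.26 SE, adjusted p = 0.000201). Nqo1, often used as a reporter of Nrf2, was 184, 166 and 149.8 CPM with saline and 146, 124 and 147 CPM at 3 days (log2 change -0.28, adjusted p = 0.524) and did not pass. The Akr1b8 call (1.13) ended without 3-day mouse 2 or 3 or saline mouse 1 or 2 (adjusted p from 0.0584 to 0.102). Of 19 tested glycolysis and hypoxia genes Adm and Ldha rose, Ndrg1 fell and the median was 0.04. Adm, the vasodilator adrenomedullin, rose by 1.05 ± 0.22 SE on the log2 scale (adjusted p = 0.00688), and Ndrg1 was 149.5, 162 and 141 CPM with saline and 77.9, 59.4 and 44.97 CPM at 3 days and fell by 1.33 ± 0.20 SE on the log2 scale (adjusted p = 0.000348). Ldha (log2 change 0.80, adjusted p = 0.0143) was lost without saline mouse 2 or 3 (adjusted p from 0.0745 to 0.0804). None of 16 nuclear oxidative phosphorylation genes passed in edgeR or DESeq2, 1 had an unadjusted p under 0.05, and the median was 0.25, or -0.05 without 3-day mouse 2. Of 20 unfolded protein response genes Dnajb11 and Pdia6 rose and Herpud1 fell, with log2 changes of 0.49, 0.58 and -0.56, and 1 rose and 2 fell without 3-day mouse 2. The Dnajb11 call ended without 3-day mouse 2 or 3 or any saline mouse (adjusted p from 0.0611 to 0.172). Pdia6 lost its call without 3-day mouse 2 or 3 or any saline mouse (adjusted p from 0.0512 to 0.138), and Herpud1 in the fit on the 6 libraries alone (adjusted p = 0.127). Of 18 cholesterol synthesis genes Lss fell, with a log2 change of -0.60 and an adjusted p of 0.039, and the call ended without 3-day mouse 2 or saline mouse 1 or 2 (adjusted p from 0.098 to 0.165). In the fit without 3-day mouse 2, 0 of the cholesterol genes fell, 1 of the immediate early genes described next rose and 1 fell. Of 22 immediate early genes Fosl1 rose, at 0.639, 0 and 0.417 CPM with saline and 3.14, 2.99 and 3.35 CPM at 3 days (log2 change 3.08, adjusted p = 0.00207, or 0.107 in the fit on the 6 libraries alone). The share of immediate early genes that rose (4.55%) was near the 4.32% over all genes tested.

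Lists for other tissues and systems that a whole bladder can hold are given by their counts, beside 4.32% higher and 1.67% lower over all genes tested. Of 18 tested complement and coagulation genes F13a1, a clotting factor of macrophages, and Procr, the protein C receptor, rose (1.28 and 1.24 on the log2 scale). F13a1 was 28.8, 25.02 and 29.3 CPM with saline and 97.3, 58.9 and 48.5 CPM at 3 days. Procr was 12.1, 12.9 and 11.2 CPM with saline and 26.6, 27.95 and 31.1 CPM at 3 days. Both genes were higher in every 3-day mouse than in every saline mouse (adjusted p = 0.00688 and 0.000776). Of 10 mesothelium genes Krt19 rose and Upk3b fell, both of which are on the umbrella cell list, and of 15 nerve genes Ngfr rose. Of 10 skeletal muscle genes Myh2, a fast myosin, fell (log2 change -3.20, adjusted p = 0.0193), a call that ended without 3-day mouse 1 or 2 or saline mouse 1 or 2 (adjusted p from 0.0663 to 0.0998). In the fit without 3-day mouse 2, 3 complement and coagulation genes rose, 2 nerve genes rose and 1 fell, 0 skeletal muscle genes fell, and 1 of the adipocyte genes fell. None of 13 adipocyte genes passed in edgeR (2 at an unadjusted p under 0.05, 1 in DESeq2) and none of 10 female genital tract genes (3 at an unadjusted p under 0.05, 0 in DESeq2). Hrh3, a histamine receptor, was among the genes with the largest decreases, at 12.5, 12.5 and 12.7 CPM with saline and 2.23, 0.837 and 2.07 CPM at 3 days (log2 change -2.90, adjusted p = 0.0105), and its call ended without 3-day mouse 2 (adjusted p = 0.0531).

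The state at 1 day after cyclophosphamide on the same diet was set beside that at 3 days. The comparisons share libraries, since 1 day against saline uses the same saline mice and 3 days against 1 day the same 3-day mice, so each is given by its own values. At 1 day 3727 genes (19.3%) differed from saline, 1979 higher (10.2%) and 1748 lower (9.05%), and between 1 and 3 days 819 genes (4.24%) differed, 492 higher (2.55%) and 327 lower (1.69%) at 3 days. Between 1 and 3 days 17 genes passed in the fit on the 6 libraries of those groups alone and 129 with voom sample weights, and of the 37 genes reported here that passed between the days, 9 and 17 did so. Of the 834 genes that rose at 3 days against saline, 36 were higher at 3 days than at 1 day, 52 were lower and 746 did not pass that test. Of the 322 that fell, 16 were higher at 3 days than at 1 day, 16 were lower and 290 did not pass. The number of genes that differed between 1 and 3 days was 1335 without 3-day mouse 3, and 1293, 366 and 316 without 1-day mouse 1, 2 or 3.

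Fibroblast genes differed between the days. Of the 22 fibroblast genes 14 fell at 1 day (median log2 change -1.33) and 11 were higher at 3 days than at 1 day (median 1.19). Col14a1, a fibril-associated collagen, was 275, 250.1 and 259 CPM with saline, 24.3, 7.05 and 11.9 CPM at 1 day and 254, 159 and 68.8 CPM at 3 days. At 3 days mouse 1 was within the saline range, the others were below it and all were above the 1-day values. The Col14a1 change from 1 to 3 days was 3.50 (adjusted p = 0.000185) on the log2 scale, with an adjusted p of 0.0626 on the 6 libraries alone, while 3 days against saline did not pass (log2 change -0.72, adjusted p = 0.301). Fbln5, an elastic fibre protein, was 103, 104 and 99.2, 12.1, 6.79 and 10.1 and 75.7, 77.1 and 32.7 CPM in the same order (log2 change 2.70, adjusted p = 1.83e-05 from 1 to 3 days), and the glypican Gpc6 was higher by 2.51. Adamdec1 was 19.4, 25.5 and 13.3 CPM at 1 day, below saline (log2 change -0.85, adjusted p = 0.00148), and above it at 3 days. Igsf10 was likewise lower at 1 day (log2 change -1.62, adjusted p = 0.000139) and higher at 3 days than with saline (log2 change 0.86, adjusted p = 0.038), although the second change was 0.47 without 3-day mouse 1 and its call ended without 3-day mouse 1 or any saline mouse (adjusted p from 0.105 to 0.163). Of the 22 collagens 10 were higher at 3 days than at 1 day and 1 was lower.

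Some genes of glycolysis, of the immediate early response and of replication were lower at 3 days than at 1 day. Of the 19 glycolysis and hypoxia genes 10 rose at 1 day (median log2 change 0.68) and 10 were lower at 3 days than at 1 day (median -0.73). Slc2a1, the glucose transporter GLUT1, was 42.9, 39.9 and 40.7 CPM with saline, 99.2, 148 and 148 CPM at 1 day and 52.6, 52.1 and 60.5 CPM at 3 days. Its log2 change from 1 to 3 days was -1.25 (adjusted p = 0.000222), with an adjusted p of 0.0884 on the 6 libraries alone. Against saline its 3-day level did not pass (log2 change 0.41, adjusted p = 0.13), although every 3-day value lay above every saline value. Of 22 immediate early genes 13 rose at 1 day and 7 were lower at 3 days than at 1 day. Krt5 was 2097, 3164 and 2274 CPM at 1 day and fell by 1.002 (adjusted p = 0.00578) on the log2 scale to a level still above saline, with an adjusted p of 0.266 on the 6 libraries alone. Krt13 (log2 change -1.98, adjusted p = 0.0218) and Il33 (log2 change -1.70, adjusted p = 0.0257) were lower at 3 days than at 1 day too. The adjusted p of these differences reached 0.104 and 0.114 when 1 library was left out, and was 0.118 and 0.183 on the 6 libraries alone. None of the 28 mitosis genes passed between the days in edgeR, at an unadjusted p under 0.05 or in DESeq2 (median -0.50), and 7 of the 26 replication genes were lower at 3 days (median -0.75). Mki67 was 198, 124 and 99.9 CPM at 1 day, a range that overlaps the 3-day range (log2 change -0.72, adjusted p = 0.415). H2-Aa was 15.8, 11.2 and 13.03 CPM at 1 day and overlapped the 3-day values too (log2 change 0.45, adjusted p = 0.346).

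**Figure D3:**
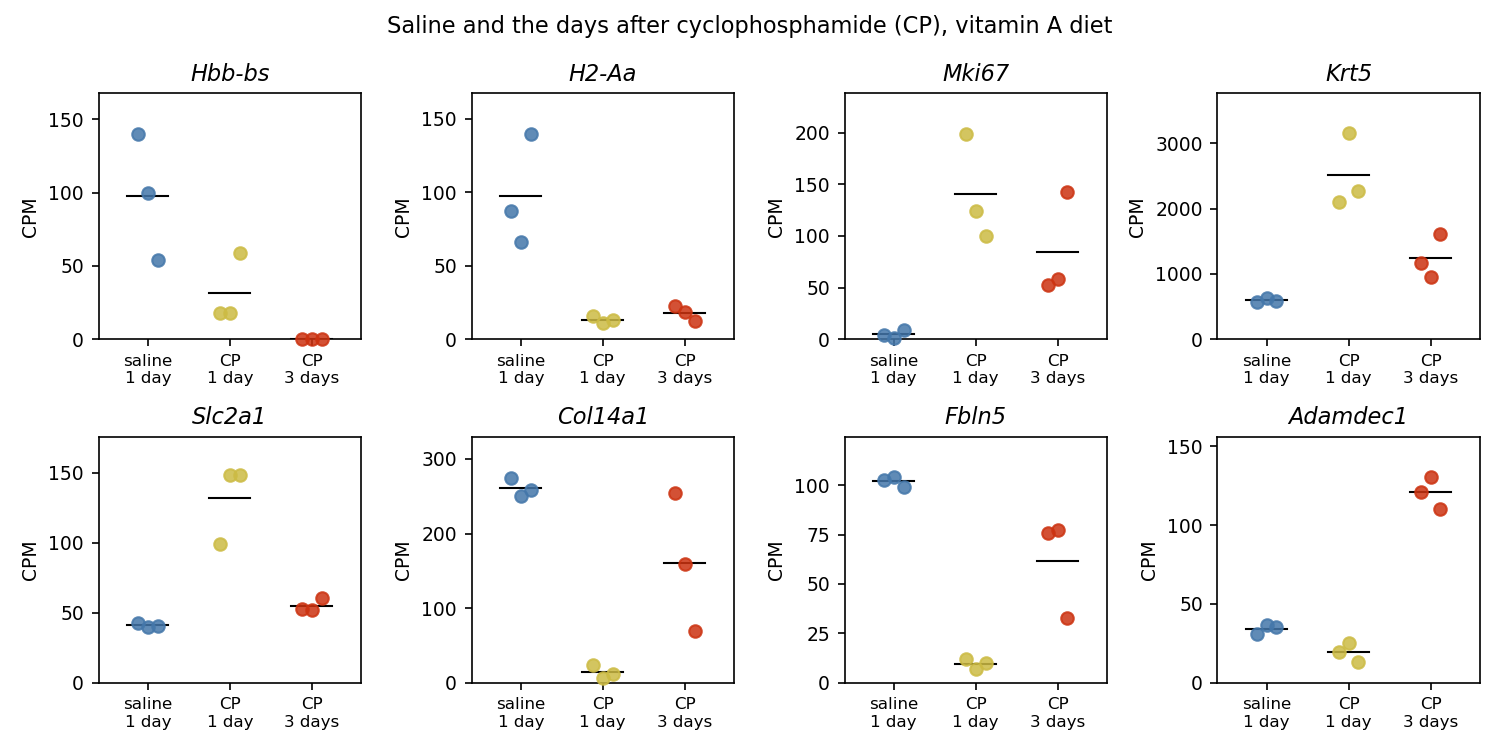
Expression of 8 genes in each mouse of 3 groups on the vitamin A diet, in CPM on linear axes, with saline at 1 day in blue, cyclophosphamide at 1 day in yellow, cyclophosphamide at 3 days in red and lines at the group means of 3 mice. Hbb-bs and H2-Aa are low at 3 days. Slc2a1 is highest at 1 day, and its 3-day values all lie above the saline values. Col14a1 and Fbln5 are lowest at 1 day, and Adamdec1 is highest at 3 days (121, 131 and 111 CPM).

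On the normal diet, 3 days after cyclophosphamide against 1 day after saline, 1940 genes (10%) passed, 1303 higher (6.74%) and 637 lower (3.3%), in 6 other libraries. Of the calls on the vitamin A diet, 919 were calls on the normal diet as well, which is 79.5% of the vitamin A calls and 47.4% of the normal-diet calls, and all 919 had the same direction. Of the 1156 calls 1151 had the same sign on the normal diet. No gene passed the test of whether the 3-day change differed between the diets (lowest adjusted p = 0.9998 by edgeR, 464 genes at an unadjusted p under 0.05), nor did any with DESeq2 (609 at an unadjusted p under 0.05). Of the genes whose log2 CPM averaged 1 or more, Gsdmc3, Gsdmc2 and Eln had the lowest interaction p. Gsdmc3, a gasdermin, rose by 1.23 on the vitamin A diet and 2.68 on the normal diet, and the difference was -1.45 (adjusted p = 0.9998). Eln, elastin, had 0.04 and 1.19, a difference of -1.15 (adjusted p = 0.9998). Mki67 changed by 4.10 and 5.73, Cdkn1a by 1.80 and 2.32, Krt5 by 1.05 and 0.68 and H2-Aa by -2.45 and -1.33 on the vitamin A and the normal diet. Among the retinoid genes Cyp26b1 changed by -1.42 and -1.06 (adjusted p = 0.105 on the normal diet), and the difference did not pass (log2 change -0.36, adjusted p = 0.9998). Of the 25 macrophage genes 15 rose on the normal diet and 9 on the vitamin A diet, of 27 interferon genes 13 and 4, and of 22 smooth muscle genes 9 and 1 fell, with no interaction call in any of these lists. A miss of the interaction test does not show that the diets act alike. The normal-diet count was 961 without 3-day mouse 1 of that diet and 1102 without its saline mouse 2, and between 1105 and 1267 without 3-day mouse 3 or saline mouse 1 or 3.

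**Figure D4:**
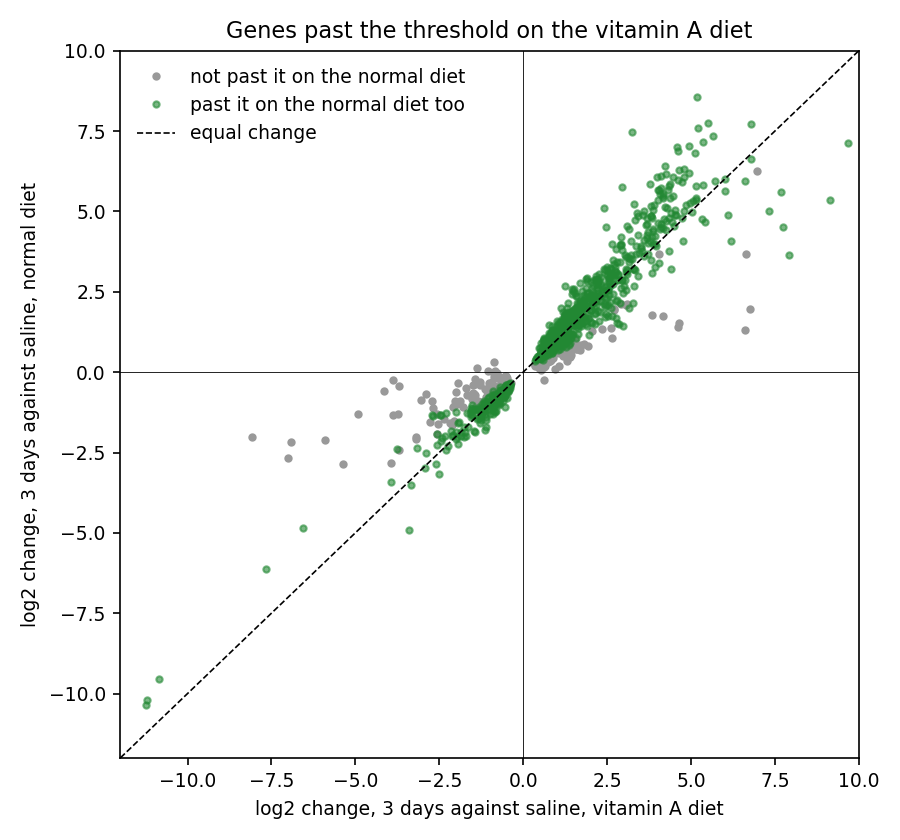
The log2 change from saline to 3 days after cyclophosphamide on the vitamin A diet (horizontal) against that on the normal diet (vertical), for the 1156 genes past the threshold on the vitamin A diet, with green points for the 919 that also passed on the normal diet, grey points for the others and a dashed line at equal change. Nearly all points lie in the upper right or lower left corner (1151 of 1156), and the 2 axes share no library.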

How the data were processed

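Whole-bladder RNA-seq of 18 libraries in 6 groups of 3 mice was used. The authors deposited a table of raw counts per gene, with no normalization, and a table of FPKM values, scaled by gene length and library total, per the file headers, and tests were run on the counts. HISAT2 2.0.5, featureCounts 1.5.0-p3, DESeq2 1.20.0 and GRCm39 are named in the submitters' processing notes without their roles, and the strandedness of the counting is not given in the sources used here.

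Of 60750 features, 14417 without a gene name were left out of library sizes and tests (0.474% to 0.81% of the counts). Genes were kept by filterByExpr, scaled by TMM and tested in edgeR 4.0.16 (R 4.3.3) by the quasi-likelihood test with 1 mean per group over all 18 libraries (12 residual degrees of freedom), with Benjamini-Hochberg adjustment at 0.05. A CPM value is a count scaled to a library total of 1000000 counts in named genes, without TMM. Alternatives used size factors of DESeq2, its Wald test (DESeq2 1.42.0), limma 3.58.1 voom with sample weights, other filters, fewer libraries and the replicate number as a block. An exact permutation test of 3 against 3 cannot go below 0.1 and was not used. Counting intervals (95%, exact) and the floor of 3 counts cover counting error only. Each SE was derived from edgeR's test, as the absolute log2 change over the square root of the F statistic. Intervals of log2 changes use a normal quantile, so they are narrower than intervals from the degrees of freedom of the test. The mice of a group are separate animals, per the labels, so p-values measure the spread between mice.

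The gene lists, the rule for named genes and the comparison itself were chosen with earlier results of these data known, so no list is independent evidence of its direction. Named were the 12 genes with the largest rise and the 12 with the largest fall whose groups did not overlap, the first gene of each of the 39 lists with up to 4 members each way past the threshold, the genes with the lowest p between days and diets, and a few fixed urothelial genes. Genes on several lists count in each. Promoters were read from RefSeq tables of GRCm38.p6 by gene identifier. A few genes are not reported here.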

Additional observations from a re-analysis of the deposited data

Results flagged for a closer look

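For the genes below, the change at 3 days against saline and the change at 1 day against the same saline mice differed in edgeR's test of 3 days against 1 day on the vitamin A diet (adjusted p under 0.05). Each value is the log2 change at 3 days minus that at 1 day, and their causes were not tested. Haemoglobin genes had the most negative values, -9.95 for Hba-a2, -9.17 for Hbb-bs, -8.91 for Hbb-bt and -6.31 for Hba-a1. Hba-a2 and Hbb-bt had 0 counts at 3 days, so the size of their values is not measured. None of these haemoglobin genes passed between the days with voom sample weights (adjusted p from 0.217 to 0.388). Keratin and cornified envelope genes with negative values were Sprr2f at -3.81, Sprr2g at -3.77, Krt6a at -3.44, Krt13 at -1.98 and Krt5 at -1.002. Other genes with negative values, from several lists, were Anxa10 at -3.86, Fosl1 at -2.45, Il33 at -1.70, Akr1b8 at -1.76, Ercc1 at -1.90, Col17a1 at -1.63, Procr at -0.87 and Pdlim1 at -0.81. In glycolysis and hypoxia the values were -1.25 for Slc2a1, -1.005 for Pgk1, -0.92 for Pfkl, -0.90 for Ndrg1 and -0.68 for Ldha. When 1 library was left out, Il33, Krt13, Krt6a, Ldha, Pdlim1 and Sprr2f passed in 2 of 6 fits, and Procr in 3.

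Positive values, higher at 3 days than at 1 day, belonged largely to matrix and fibroblast genes. They were 3.50 for Col14a1, 3.35 for Myoc, 2.70 for Fbln5, 2.66 for Adamdec1, 2.51 for Gpc6, 2.48 for Igsf10, 2.22 for Col1a1, 1.49 for Eln, 1.44 for Col5a2, 1.05 for Pdgfra, 0.92 for Col8a1 and 0.83 for Gpx3. Outside the stroma, the values were 1.11 for Upk3a, 1.06 for Adgre1 and 0.89 for Cldn8. In the fit on the 6 libraries of both days alone, 17 genes passed this test. With voom sample weights the adjusted p was 0.786 for Myoc and 0.401 for Gpx3. When 1 library was left out, Adgre1, Myoc, Pdgfra and Upk3a passed in 3 of 6 fits, and Cldn8, Col8a1 and Gpx3 in 2.

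Among features without a gene name, which the report does not use, 25 of 1946 tested passed between 3 days and saline, 20 higher and 5 lower.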

How the results depend on the processing

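The count of genes that changed at 3 days against saline was 1766 with DESeq2, 499 on the 6 libraries alone, 2850 with voom sample weights and 671 to 1664 when 1 library was left out. Genes that rose numbered 402 on the 6 libraries alone, 1709 with voom weights and 516 to 1092 with 1 library left out, and genes that fell numbered 627 with DESeq2, 97 on the 6 libraries, 1141 with voom weights and 155 to 572 with 1 library left out. Between 3 days and 1 day the count was 1726 with DESeq2, 17 on the 6 libraries of those groups, 129 with voom weights and 316 to 1335 with 1 library left out. At 1 day against saline it was 2474 to 3926 with 1 library left out. On the normal diet it was 3710 on its own 6 libraries, 5689 with voom weights and 961 to 1559 with 1 library left out. The causes of these differences were not tested. Of 125 named genes past the threshold, 77 passed in all 6 fits without a library, 77 of 124 passed on the 6 libraries alone, and none changed sign. Of the genes reported that did not pass, Ndufa4 (-0.16) and Trp63 (0.13) changed sign with voom weights. Adgre1, Col14a1, Myh11 and Slc2a1 passed with voom weights. With 1 library left out the log2 change ran from -1.45 to 0.10 for Adipoq, -0.80 to 0.15 for C3, -0.00901 to 0.33 for Egfr, -0.10 to 0.30 for Eln, -0.36 to 0.42 for Ndufa4, -1.19 to 0.33 for S100a8 and -0.14 to 0.13 for Trp63. With the replicate number as a block 1050 genes changed (768 rose and 282 fell). No label pairs the mice, and the deviations of same-numbered mice correlated at -0.12 to 0.07, so the number was not taken as a pairing.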

Other observations

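Some genes outside the lists also changed at 3 days after cyclophosphamide, and they are named after their values were seen. Of 19 tested genes of the circadian clock, Nr1d1, a repressor of the clock loop, and Bhlhe41 fell, beside 1.67% of all genes tested that fell. The clock group was drawn up after its values were seen, so this count is a description only. Nr1d1 was 159.7 ± 16.2 CPM with saline and 53.7 ± 2.13 CPM at 3 days (SD, n = 3), with a log2 change of -1.58 and an adjusted p of 3.17e-05 by edgeR. Its log2 change on the normal diet was -1.28 (adjusted p = 0.000161). Bhlhe41 had a log2 change of -0.61 (adjusted p = 0.0102). Arntl, the clock activator BMAL1, changed by -2.38 at 1 day and by -0.78 at 3 days (adjusted p = 0.0769 at 3 days). The hour of collection is not given in the sources used here, so the time of day and the group cannot be told apart.

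At the imprinted Dlk1-Meg3 region 2 of 5 tested genes fell, the noncoding RNAs Meg3 and Rian, a group likewise drawn up after its values were seen and read beside the same 1.67%. Meg3 was 179 ± 31.3 CPM with saline and 45.2 ± 4.03 CPM at 3 days (SD, n = 3), a log2 change of -1.99 (adjusted p = 0.000121 by edgeR), and Rian had -1.67 (adjusted p = 0.0084). Both were lower on the normal diet as well, by log2 changes of -1.23 and -1.28 (adjusted p = 0.00588 and 0.0302).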
